A study of Mus musculus with 2 samples.

Results

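The response of the dermis to loss of caspase-8 in the overlying keratinocytes was read from 1 two-colour oligonucleotide array, 1 of 2 arrays in the series. All spots carrying a probe number that starts with A_5 were taken, which gave 21318 spots of 20868 probes, out of 42636 such spots on both arrays. The skin came from mice at postnatal day 3. Dermis of Casp-8F/+K5-Cre mice, pooled from 3 animals, was labelled with the dye Cy3, and dermis of Casp-8F/–K5-Cre mice, pooled from 2 animals, was labelled with the dye Cy5 (called F/+ and F/– below). The epidermis on the other array was pooled from 3 animals of each genotype. The F/– pools of the layers thus did not hold the same set of animals. Both groups carried K5-Cre, a Cre recombinase driven by the keratin 5 promoter, and at least 1 F allele, which by convention Cre can inactivate. They differed in the other Casp-8 allele, which was + in one group and – in the other. That allele was present in every cell of the animal, so the cells of the dermis differed in it too, whereas K5-Cre acts in basal keratinocytes and their descendants. All ratios are F/– over F/+.

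Caspase-8 is the initiator protease that death receptors activate to start apoptosis, and it also restrains necroptosis, a lytic form of cell death. The epidermis is made of keratinocytes, and the dermis below it holds fibroblasts, collagen-rich matrix, vessels, nerves and immune cells. The Cre driver is active in keratinocytes, some of which, in hair follicles, can stay with the dermis when skin is split. The comparison asked how mRNA levels in this layer differed between the genotypes. The files name probes and give no gene, and 0 of 20868 probe numbers matched the gene tables at hand. Probes are therefore described by number, by their signals and by their behaviour in both layers. Neither marker genes of the dermis nor Casp-8 itself could be looked up, so the labelled tissue and genotype were not checked against their transcripts.

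Signals on the dermis array were well above background. The median background-subtracted signal of probe spots was 508 in F/+ and 332 in F/–, over median local backgrounds of 39.0 and 33.0. Of the probe spots, 97.9% in F/+ and 96.9% in F/– exceeded a limit set at the 95th percentile of 162 negative control spots. The F/– channel was thus dimmer as a whole, with a median log2 ratio of -0.47 before normalization. Spatial trends were small: the median normalized log2 ratio in 25 blocks of the array ran from -0.042 to 0.026. With 1 array of pooled RNA and no dye swap, there was no spread between mice and no test. A dye preference of a probe cannot be told apart from the genotype.

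Most probes read alike in both genotypes of dermis. The normalized log2 ratio of 98.7% of the 20868 probes lay within 1.5-fold and of 92.6% within 1.25-fold, against 95.7% and 85.9% in the epidermis. The central 98% of dermal ratios spanned -0.53 to 0.46 on the log2 scale, where the epidermis spanned -0.73 to 0.97. The standard deviation over all probes was 0.20 in the dermis and 0.29 in the epidermis. The epidermis array was also the noisier one technically. Its pooled standard deviation between spots of the 50 probes printed 10 times was 0.079, against 0.050 for the dermis array. Its Cy5 spots with a pixel standard deviation above 0.5 times the mean signal numbered 110, against 13. Its Cy5 spots at 65000 or more numbered 34, against 4. How much of its wider spread was technical was not tested. At least 2-fold higher in F/– dermis were 49 probes, which is 0.235% of all, and at least 2-fold lower were 17, or 0.0815%. In the epidermis the shares were 0.934% and 0.302%. The higher epidermal calls included 51 of the 418 probes that were brightest on the dermis array. The authors' deposited table has 1 of these 418 past 2-fold upwards in that layer. Higher probes made up 74.2% of the dermal calls, but 18.5% without normalization, 88.8% with 1 median factor for the array, 60.0% with a narrower loess span and 55.6% in the authors' deposited table.

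**Figure D1:**
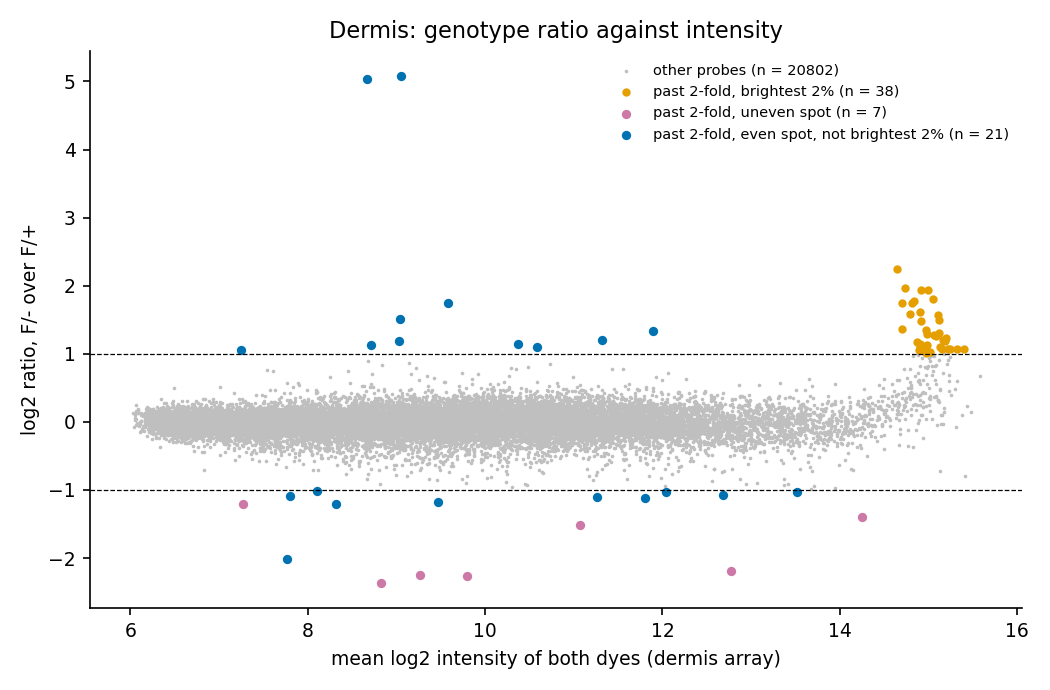
Each point is 1 of 20868 probes on the dermis array. The horizontal axis is the mean log2 intensity of both dyes, the vertical axis is the log2 ratio F/– over F/+, and dashed lines mark 2-fold. The 21 even spots past 2-fold (blue) are spread over intensity, the 38 bright ones (orange) all lie at the right end above the upper line, and the 7 uneven ones (pink) all lie below the lower line.

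The 66 probes past 2-fold fell into 3 kinds, as the plot of ratios against intensity shows. The brightest 2% of probes on the array contributed 38 of the 49 higher ones. Of the 17 lower probes, 7 came from spots whose pixel standard deviation exceeded 0.5 times the mean signal, called uneven here. The remaining 11 higher and 10 lower probes came from even spots outside the brightest 2%, 0.0538% and 0.0489% of the 20436 probes of that kind. These 21 probes are described first, and each had the same sign of the dermal ratio under all 7 other normalizations and background corrections run and in the authors' deposited table.

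The highest ratios belonged to a pair of probes whose signals were near the detection limit in F/+ dermis. Probe A_51_P479715 had a background-subtracted signal of 63.8 in F/+ dermis and 2532 in F/– dermis, a 33.8-fold difference or 5.08 on the log2 scale. Probe A_51_P402994 had 39.7 and 1896, and since its F/+ signal did not exceed the limit set by the negative controls (49.2), its difference is given as at least 26.9-fold. Both signals in F/+ dermis thus lay at or near the level of empty hybridization, whereas both in F/– dermis were far above it. An offset of 50 that was added to all signals before the ratio shrinks such values. Without it the fold of A_51_P479715 was 64.2, and the authors' deposited table gives 56.7-fold. For A_51_P402994 no fold beyond the bound is given, since its level in F/+ dermis was not above that of the negative controls.

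These probes were not dim in the epidermis. A_51_P479715 read 2178 in F/+ and 3159 in F/– epidermis, and A_51_P402994 read 1720 and 2589, log2 ratios of 1.20 and 1.25. Set against the epidermis within one dye, F/+ dermis was 19.8-fold lower for A_51_P479715 (4.31 on the log2 scale) and at least 16.9-fold lower for A_51_P402994. F/– dermis was lower than F/– epidermis by only 0.43 and 0.59. The gap between the layers in the F/+ pools was thus nearly closed in the F/– pools. The 2 probes had like profiles over all 4 channels, although their spots lie far apart on the array, at row 156, column 60 and at row 105, column 12. The 8 spots around each had dermal log2 ratios between -0.14 and 0.24 and between -0.11 and 0.27.

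Probes of the epidermis as a class had dermal ratios close to 0, a little to the higher side. By the mean of both dyes, 53 even probes outside the brightest 2% of either array read over 16-fold higher in epidermis than in dermis. Their dermal log2 ratios had a median of 0.026 and extremes of -0.51 and 0.70, and 64.2% of them lay above 0, against 48.9% of the 16176 probes within 2-fold of each other in both layers, whose median was -0.0033. The authors' deposited table gives medians of 0.063 and 0.0085 for the same classes. None of the 53 was past 2-fold, but class and ratio were read from the same spots and are not independent. A higher F/– value in dermis narrows the gap between the layers and can move a probe out of this class. A_51_P479715, 19.8-fold higher in epidermis by F/+ levels, fell in the class from 4-fold to 16-fold. A_51_P200186, lower in F/– dermis, was left out because it was among the brightest 2% in the epidermis. For the 508 probes between 4-fold and 16-fold higher in epidermis the median was 0.023, with 4 of them 2-fold higher in F/– dermis and 1 lower, A_51_P145453, where 0.0538% and 0.0489% of all even probes outside the brightest 2% were. Whether the amount of epidermis left on the dermis differed between the pools was not tested with marker genes.

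**Figure D2:**
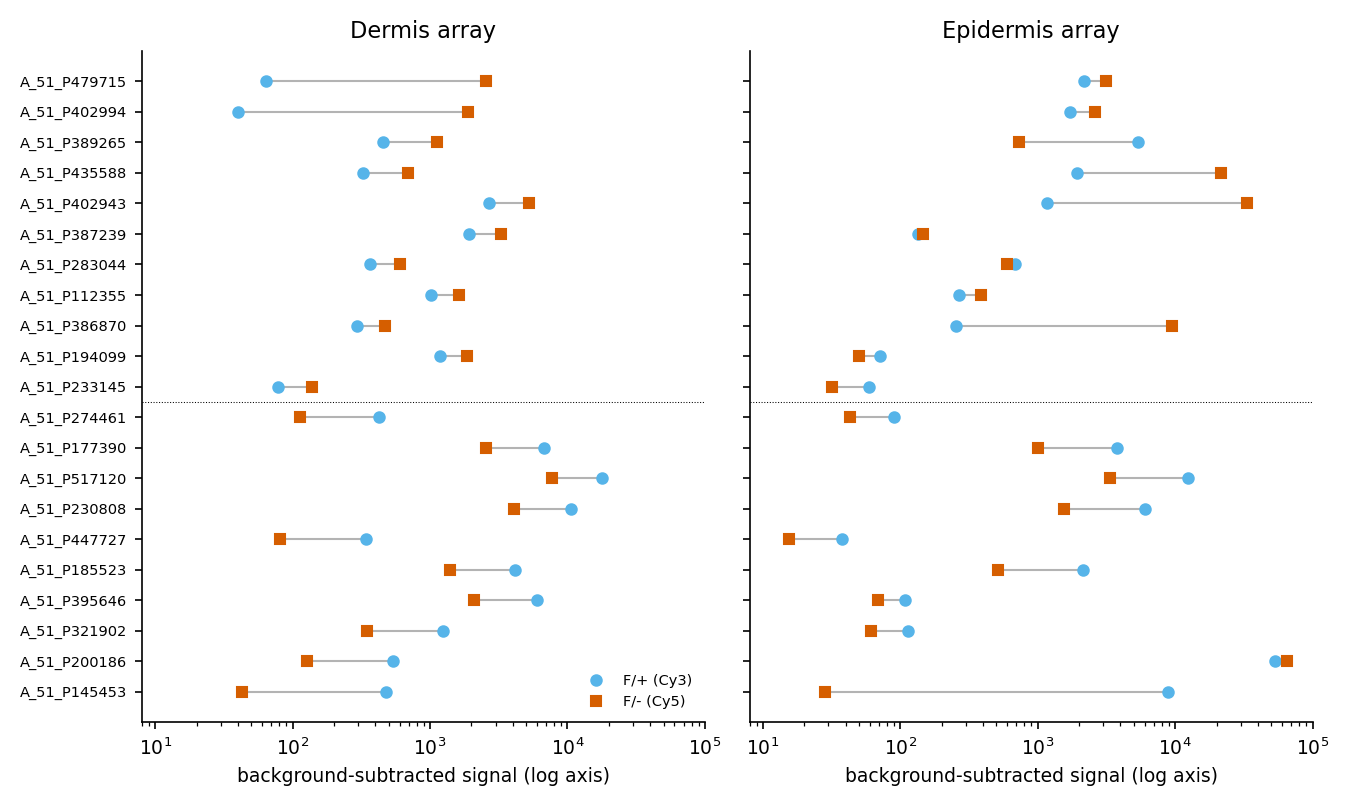
Background-subtracted signals (log axis) of the 21 even probes outside the brightest 2% that passed 2-fold in the dermis, in F/+ (circles, Cy3) and F/– (squares, Cy5), on the dermis array at left and the epidermis array at right. Probes are ordered by dermal ratio and the dotted line separates the 11 higher from the 10 lower. A_51_P479715 and A_51_P402994 have wide gaps in the dermis and narrow ones in the epidermis.

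A further 3 of the 11 higher probes were moderately higher in F/– dermis and far more so in F/– epidermis. A_51_P435588 had 328 in F/+ and 690 in F/– dermis, 2.84-fold, and 1944 and 21670 in the epidermis, a log2 ratio of 4.04. A_51_P402943 had 2682 and 5238 in the dermis, 2.53-fold, and 1166 and 33489 in the epidermis, a log2 ratio of 5.39. A_51_P386870 had 294 and 469 in the dermis, 2.20-fold, and 254 and 9424 in the epidermis, a log2 ratio of 5.66. In F/+ skin their levels were unlike between layers: A_51_P435588 was 5.01-fold higher in epidermis, A_51_P402943 was 2.82-fold higher in dermis, and A_51_P386870 differed by 1.11-fold. In F/– skin all 3 were higher in epidermis, by 29.0-fold, 5.85-fold and 20.7-fold.

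Another 5 of the higher probes had ratios of moderate size in the dermis. A_51_P387239 had 1913 in F/+ and 3303 in F/– dermis, 2.31-fold, and was a probe of the dermis, with only 135 and 146 in the epidermis and a log2 ratio of 0.63 there. A_51_P194099 was of the same kind, with 1190 and 1865 in the dermis, 2.15-fold, against 71.5 and 50.3 in the epidermis. A_51_P112355 had 1011 and 1617, 2.20-fold, and a near-equal log2 ratio in the epidermis (1.14 in dermis, 1.09 in epidermis). A_51_P283044 had 368 and 608, 2.28-fold, with an epidermal log2 ratio of 0.47. A_51_P233145, with 78.1 and 138 and a ratio of 2.08-fold, was dim, and its epidermal signals of 59.4 and 31.8 lay just above the negative control limits of 50.8 and 29.1. Without normalization 8 of the 11 higher probes fell short of 2-fold, the exceptions being A_51_P479715, A_51_P402994 and A_51_P389265.

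A_51_P389265 had opposite ratios in the layers. It had 452 in F/+ and 1124 in F/– dermis, 3.35-fold higher, and 5355 and 726 in the epidermis, a log2 ratio of -2.13. In F/+ skin it was 10.6-fold higher in epidermis than in dermis, and in F/– skin it was 1.38-fold higher in dermis. Its values in the authors' deposited table are 1.86 and -2.19.

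Among the 10 lower probes, A_51_P145453 had the lowest ratio. It had 476 in F/+ and 43.0 in F/– dermis, 4.05-fold lower or -2.02 on the log2 scale, and 7.25-fold lower without the offset. The authors' deposited table has -2.69. In the epidermis the same probe had 8799 in F/+ and 28.2 in F/–, below the negative control limit of 29.1, and was at least 73.3-fold lower. F/+ dermis held 17.8-fold less of it than F/+ epidermis. In F/– skin the signal thus lay below the negative control limit in the epidermis and a little above it, at 43.0 against a limit of 28.7, in the dermis, so no difference between the layers is given.

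A_51_P200186 was a probe of the epidermis that was lower in F/– dermis. It had 535 in F/+ and 127 in F/– dermis, 2.31-fold lower, while its epidermal signals of 53138 and 64599 were among the brightest on that array. The latter lay just under the saturation limit of 65000. Its epidermal log2 ratio was 0.49 here but -0.81 in the authors' deposited table, so no direction is given for that layer. Its F/+ level in dermis was 99.4-fold below that in epidermis. It thus ran against A_51_P479715 and A_51_P402994, which also read higher in epidermis in F/+ skin.

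A second set among the lower ones read higher in dermis than in epidermis and had no 2-fold difference measured in the epidermis. A_51_P395646 had 6025 in F/+ and 2071 in F/– dermis, 2.18-fold lower, and only 109 and 68.4 in the epidermis, where its log2 ratio was 0.057. A_51_P321902 had 1234 and 348, 2.27-fold lower, against 114 and 60.9 in the epidermis and a log2 ratio of -0.094. A_51_P447727 had 340 and 80.5, 2.12-fold lower, and in the epidermis it exceeded the negative control limit in neither genotype, so no ratio is given there. A_51_P274461 had 423 and 113, 2.03-fold lower, and 89.4 and 43.0 in the epidermis, where its spot was uneven. These 4 probes were lower in F/– dermis with no 2-fold difference measured in the epidermis. The spots of A_51_P447727 and of A_51_P230808, described next, are neighbours on the array, at row 130, columns 71 and 70.

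The remaining 4 lower probes were strongly hybridized in both layers and lower in F/– in both by near-equal amounts. They too read higher in dermis than in epidermis within F/+ skin, by 1.98-fold for A_51_P517120 to 2.24-fold for A_51_P230808. A_51_P185523 had 4138 in F/+ and 1392 in F/– dermis, with log2 ratios of -1.10 in dermis and -1.29 in epidermis. A_51_P230808 had 10552 and 4063, with -1.08 and -1.27. A_51_P517120 had 17682 and 7683, with -1.04 and -1.29, and A_51_P177390 had 6792 and 2537, with -1.03 and -1.17. With 1 median factor for the array in place of loess, 3 of them fell short of 2-fold, at -0.89 for A_51_P230808, -0.72 for A_51_P517120 and -0.93 for A_51_P177390, and A_51_P517120 was at -0.94 in the authors' deposited table.

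These 4 belonged to a wider set with the same pattern. A limit of -0.75 on the log2 scale, chosen after the values were seen, was passed downwards in the dermis by 43 of 20261 even probes outside the brightest 2% of either array (0.212%). Of these 43 probes, 21 (48.8%) also passed it in the epidermis, where 0.918% of the same 20261 probes did. They made up 11.3% of the 186 probes lower in the epidermis at that limit. Apart from A_51_P145453, the set held 20 probes whose dermal log2 ratios lay between -1.10 and -0.78 and whose epidermal ones lay between -1.30 and -0.89. All 20 had the more negative ratio in the epidermis, by 0.014 to 0.38, and all 20 read lower in epidermis than in dermis within F/+ skin, with level differences from -1.16 to -0.15 on the log2 scale. Their F/+ signals in the dermis ran from 1315 to 19344. Their spots were scattered over rows 7 to 214 and columns 9 to 104 of the array. The authors' deposited table has them between -1.09 and -0.74 in the dermis. Both arrays were labelled the same way round, so a dye preference shared by these probes and a genotype difference cannot be told apart.

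At the mirror limit of 0.75, 22 of the 20261 probes were higher in the dermis (0.109%) and 7 of them (31.8%) also in the epidermis, where 0.982% were. They made up 3.52% of the 199 probes higher in the epidermis. These 7 were the 6 probes named above that were past 2-fold in both layers and A_51_P508530, with log2 ratios of 0.86 in dermis and 2.29 in epidermis. Their epidermal log2 ratios ran from 1.09 to 5.66, with no probe set apart. The narrow range of the lower set held only with A_51_P145453 set apart, which was at least 73.3-fold lower in the epidermis.

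**Figure D3:**
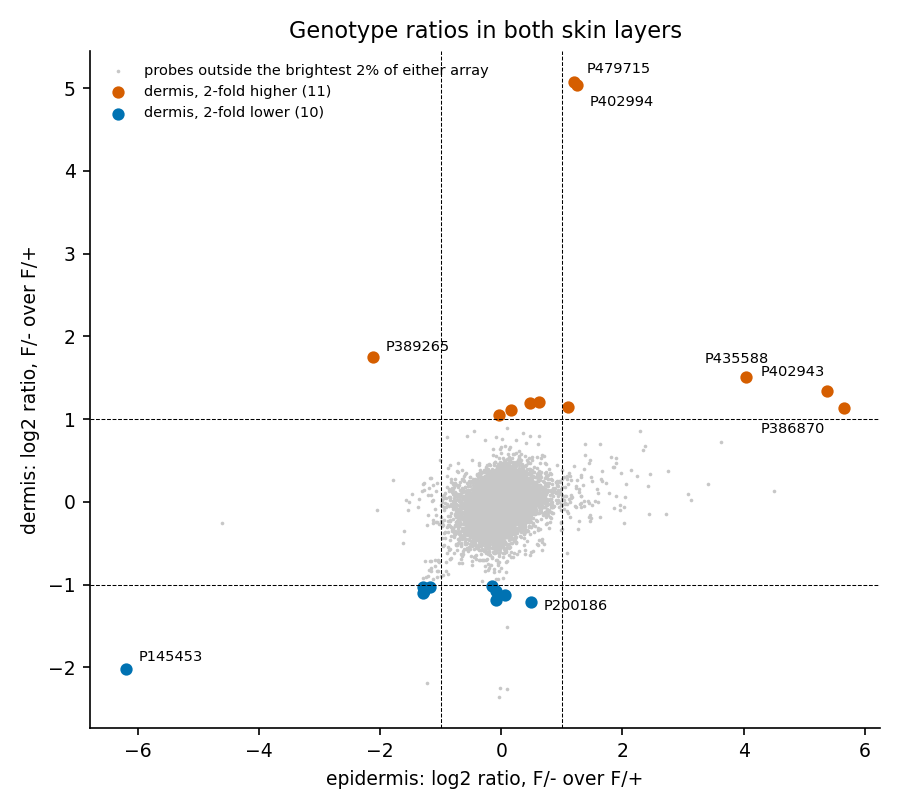
Log2 ratio F/– over F/+ in the epidermis (horizontal) and the dermis (vertical) for probes outside the brightest 2% of either array (grey), with the 11 higher (red) and 10 lower (blue) even probes of the dermis. Dashed lines mark 2-fold. A_51_P479715 and A_51_P402994 stand alone at the top, A_51_P389265 lies at the upper left, and 4 blue points cluster where both ratios are a little below -1.

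Around the 2-fold limit the ratios lay close together on the lower side, with a wider step across the limit on the higher side. The lowest of the 11 higher probes were A_51_P233145 (1.05), A_51_P194099 (1.11) and A_51_P386870 (1.13), and the highest below the limit were A_51_P463559 (0.89), A_51_P508530 (0.86) and A_51_P350058 (0.85). On the lower side A_51_P274461 (-1.02), A_51_P177390 (-1.03) and A_51_P517120 (-1.04) lay inside, and A_51_P121861 (-0.99), A_51_P186798 (-0.96) and A_51_P460626 (-0.94) outside. Of the latter, A_51_P121861 and A_51_P460626 belong to the set of 20 probes lower in both layers. A_51_P186798 was a probe of the dermis, with 2042 and 720 there and 225 and 102 in the epidermis.

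At 1.5-fold the balance tilted towards lower levels in F/– dermis among even probes outside the brightest 2%. Of the 20436 even probes outside the brightest 2%, 40 were at least 1.5-fold higher (0.196%) and 131 at least 1.5-fold lower (0.641%), so that 23.4% of those past the limit were higher. The share was 34.9% with 1 median factor for the array and 21.3% in the authors' deposited table, and 0.211% without normalization, where the whole distribution is shifted down. Of the 131 lower probes, 126 were also 1.5-fold lower in the authors' deposited table, and of the 40 higher ones 39 were also higher there. In the epidermis 43 of the 131 (32.8%) were 1.5-fold lower too, where 1.85% of all 20436 were, and 16 of the 40 (40.0%) were 1.5-fold higher, against 2.10%.

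The probes lower at 1.5-fold were more often probes of the dermis than the array as a whole. By F/+ levels, 37 of the 131 (28.2%) were at least 4-fold above the epidermis in dermis, where 3.5% of the 20436 probes did. By F/– levels, in which a lower dermal value works against the class, 26 of the 131 (19.8%) did, where 2.96% did. Of the 40 higher probes, 10 (25.0%) were at least 4-fold above the dermis in epidermis by either genotype, where 3.22% and 3.34% of all did. Probes of the dermis were also frequent among these 40, with 6 (15%) by F/+ levels and 8 by F/– levels. Of the 131 lower probes, 3 (2.29%) by F/+ levels and 7 by F/– levels were at least 4-fold above the dermis in epidermis. A high share of dermal probes was thus not particular to the lower probes. Class and ratio were read from the same spots, so these shares describe the array and are not independent of each other.

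The whole class of dermal probes was shifted slightly, by an amount that depended on normalization. The median dermal log2 ratio was -0.18 for 109 probes over 16-fold higher in dermis, -0.10 for 542 probes between 4-fold and 16-fold, -0.065 for 1442 probes between 2-fold and 4-fold, and -0.0033 for 16176 probes within 2-fold of each other in both layers. The authors' deposited table gives medians of -0.15, -0.096, -0.057 and 0.0085 for the same classes. Without normalization the medians were -0.51, -0.53, -0.51 and -0.48, so that the step from the last class to the first was -0.033 rather than -0.17. In bulk tissue, fewer cells of a type and less RNA per cell cannot be told apart.

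The brightest 2% of the array, 418 probes, behaved unlike the rest. Their median log2 ratio was 0.17, whereas the authors' deposited table gives the 416 of them that it holds a median of -0.098, on the other side of 0. Here 38 of them (9.09%) were at least 2-fold higher in F/–, with ratios between 1.01 and 2.24 and a median of 1.25. In the dermis 3 of the 38 were saturated in Cy5, so their ratios are not exact. The authors' deposited table holds all 38 and gives them a median of 0.39, with 2 past 2-fold. These were also the highest bright probes here. A_51_P323880 had 11708 in F/+ and 56176 in F/– dermis, a log2 ratio of 2.24, against 1.28 in the authors' deposited table. A_51_P315595 had 13562 and 54243, with 1.96 against 1.05. In the epidermis their log2 ratios were 1.63 and 1.73 here but 0.23 and 0.37 in the authors' deposited table. The epidermal Cy5 signal of A_51_P323880, at 65075, was saturated, so its ratio there is not exact, and that of A_51_P315595 was 63034. In all, 27 of the 38 bright probes (71.1%) were also at least 2-fold higher in the epidermis, where 12.2% of the 418 bright probes and 0.934% of all probes were, and 9 of the 38 (23.7%) were saturated in Cy5 there. Their epidermal median was 1.14 here but -0.062 in the authors' deposited table, which has 0 of the 38 past 2-fold upwards in the epidermis. Both the size of these ratios and, in the epidermis, the side of 0 on which their median lay thus differed between the normalization used here and that of the authors.

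**Figure D4:**
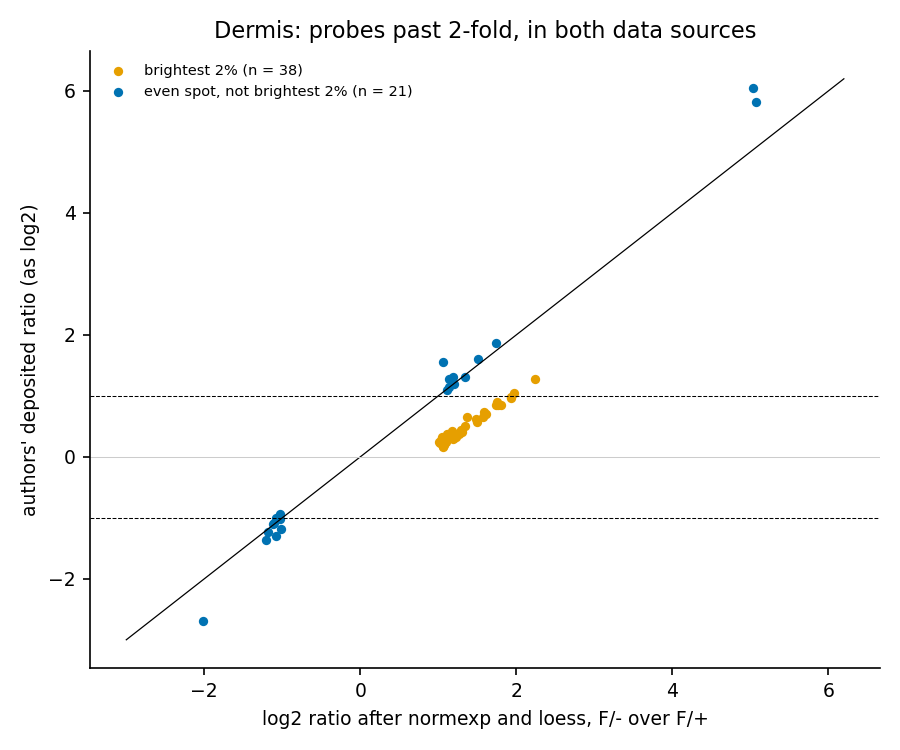
Dermal log2 ratio after normexp and loess (horizontal) against the ratio in the authors' deposited table, converted to log2 (vertical), for the probes past 2-fold that have a value in that table. The diagonal marks equal values and dashed lines mark 2-fold. Most of the 21 even probes outside the brightest 2% (blue) lie near the diagonal. Further from 0 in the authors' table are A_51_P479715 (5.08 here, 5.83 there), A_51_P145453 (-2.02 here, -2.69 there), A_51_P402994 and A_51_P233145. The 38 bright ones (orange) lie below the diagonal, 2 of them above the upper dashed line.

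The uneven spots accounted for 7 of the 17 lower probes, though only 16 of the 21318 probe spots (0.0751%) were uneven. The authors' deposited table has no value for any of those 16, nor for 219 other spots. The furthest were A_51_P301615 at -2.36, with 1185 in F/+ and 119 in F/–, and A_51_P132079 at -2.26, with 2275 and 294. With median in place of mean pixel signals their log2 ratios were -0.96 and -0.92. A_51_P313280 went from -2.25 to -0.11 and A_51_P179511 from -1.21 to 0.024, whereas A_51_P246345 went from -2.20 to -3.45. A_51_P505372 kept -1.01 of -1.51 and A_51_P318620 kept -1.31 of -1.39, so that 3 of the 7 stayed past 2-fold. No higher probe came from an uneven spot.

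By the authors' deposited table, 15 probes were past 2-fold upwards in the dermis (0.0727%) and 12 downwards (0.0582%). Of these, 13 and 9 were called here as well, and the higher ones were the 11 even probes and the 2 bright ones. The other 5 were dim. A_51_P161335 had 123 in F/+ and 156 in F/–, with a log2 ratio of 0.76 against 1.08 in the authors' deposited table, and A_51_P139835 had 41.2, below the negative control limit, and 45.9, with a value of 1.02 in the authors' deposited table. A_51_P125663, A_51_P228505 and A_51_P293369 had F/– signals of 12.3, 13.4 and 14.9, below the negative control limit of 28.7, and the authors' deposited table has -1.02, -1.06 and -1.16. For these 4 probes no ratio of levels is given here. Over the 20217 probes outside the brightest 2% with both values, Pearson's r across probes was 0.95, and 98.1% differed by less than 0.2 on the log2 scale.

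The error of a single spot was read from 50 probes printed 10 times each. The pooled standard deviation of the dermal log2 ratio between spots of a probe was 0.050, ranging from 0.019 to 0.092, and it was 0.064 over the 10 dimmest of them. Their mean log2 intensities ran from 6.81 to 13.9 and covered those of the 21 even probes past 2-fold, which ran from 7.25 to 13.5. None of the 50 reached 2-fold, and 45 stayed within 1.25-fold. The standard deviation over all probes was 4.00 times that between spots. This error is technical and covers neither mice nor dyes.

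Small differences between the pools were therefore measurable against the spread between spots for these 50 probes, which does not cover other mice. After loess, which sets the position of 0, all 10 spots lay above 0 for 18 probes and below 0 for 10. The highest were A_51_P262079 at 0.53 ± 0.034 (SD, n = 10 spots of 1 array), with mean signals of 2913 in F/+ and 3149 in F/–, and A_51_P406105 at 0.48 ± 0.034, with 3305 and 3485. In the epidermis they had 0.45 ± 0.043 and 0.11 ± 0.051, lower than in the dermis for both. The lowest were A_51_P279552 at -0.41 ± 0.033, with 6180 and 3623, and A_51_P505868 at -0.36 ± 0.019, with 2291 and 1269. Both were probes of the dermis, 10.4-fold and 8.88-fold higher there than in epidermis within F/+ skin, and their epidermal ratios of 0.087 ± 0.074 and -0.039 ± 0.054 lay near 0. Without normalization the dermal ratios were 0.11 for A_51_P262079 and 0.075 for A_51_P406105. They were then -0.76 for A_51_P279552 and -0.83 for A_51_P505868.

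**Figure D5:**
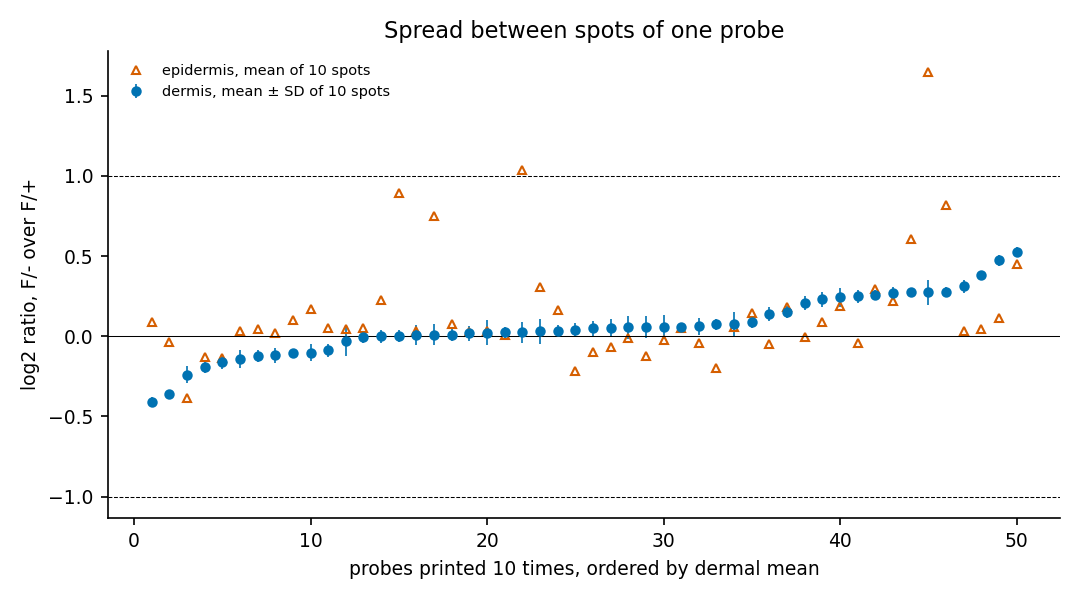
Log2 ratio F/– over F/+ of the 50 probes printed 10 times, ordered by their dermal mean. Blue points with bars are the dermal mean ± SD of 10 spots on 1 array, and red triangles are the epidermal means. Dashed lines mark 2-fold; the dermal means run from -0.41 to 0.53 and none reaches the lines.

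Compared directly, the genotype ratio was at least 2-fold higher in dermis than in epidermis for 59 probes (0.283%) and at least 2-fold lower for 175 (0.839%). Leaving out the brightest 2% on each array, 55 of 20275 probes (0.271%) passed the limit towards the dermis and 116 (0.572%) towards the epidermis. A_51_P479715 and A_51_P389265 differed by 3.88 and 3.87 on the log2 scale towards the dermis, and A_51_P145453 and A_51_P402994, each with a channel not above the negative controls, by at least 4.18 and at least 3.50. For A_51_P145453 the ratio was below 1 in both layers and nearer to 1 in the dermis, for A_51_P389265 the layers had opposite signs, and for A_51_P479715 and A_51_P402994 the ratio was above 1 in both and higher in the dermis. Towards the epidermis, A_51_P386870 differed by -4.52, A_51_P402943 by -4.04 and A_51_P435588 by -2.53. These differences are free of a probe's dye preference only if both arrays share it to the same degree, and this was not tested.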

How the data were processed

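RNA of dispase-split skin (2.4 U/ml, 4 °C, per the labels' protocols) was read on 2 two-colour arrays, 1 per layer. The deposited intensity values are pixel means and medians of each spot and its local background, measured within fixed circles (software version 5.0), per the file headers, with no subtraction or scaling recorded. The authors also deposited 1 log10 ratio per feature. Its direction (Cy5 over Cy3) and base follow from a match to the scanner signals, counting features column by column; the sources used here do not give its normalization. It was converted to log2.

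Mean signals were corrected with normexp (offset 50, local background median) and normalized by loess (span 0.3, control spots weighted 0) in R 4.3.3 with limma 3.58.1. Spots of a probe were averaged. Printed signals are mean signal minus background median. A bound ("at least") sets the brighter level over the higher of the dim probe's own level and the lowest level of spots above the negative controls, after loess and Aquantile scaling, which also served to compare layers within a dye. Signals of 65000 or more counted as saturated. A probe was called at 2-fold. No significance test was run, because each genotype and layer is 1 pool. The pipeline was tested on simulated dermis data with known changes. With a simulated fold of 3, the call found 75 of the 100 altered probes. At a fold of 8 it found 93 of 100. The counts given here can thus miss real differences, even large ones. None of the 20668 unaltered probes was called. That outcome was built in, since the simulated Cy5 signal was the Cy3 signal times a constant, with random noise far inside 2-fold. No dye bias that changes with intensity, no saturation and no uneven spots were simulated. The simulation therefore does not measure false calls on the real array.

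Named were all even probes past 2-fold outside the brightest 2%, the bright ones also past 2-fold in the authors' table, the furthest of those left out, the probes nearest the limit, and the extremes among probes printed 10 times. The uneven probes, those only in the authors' table, and the set lower in both layers were named after their values were seen. Gene lists and cell type markers had been written but could not be applied. Members, lists and rules were chosen with earlier results of these data known.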

Additional observations from a re-analysis of the deposited data

Results flagged for a closer look

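The difference between the layers was not tested for any of these values, since each rests on 1 array per layer.

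For a pair of probes the dermis and the epidermis were past 2-fold on opposite sides. For A_51_P389265 the log2 ratio was higher in dermis than in epidermis by 3.87, from values of 1.75 and -2.13. For A_51_P374469 it was higher by 3.05, from 1.58 and -1.47. That probe had 16138 in F/+ and 49819 in F/– dermis, was among the brightest 2% there, and has 0.74 in the authors' deposited table, under 2-fold.

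Of the 521 spots without an ID on the dermis array, which no comparison used, 100 exceeded the negative control limit in at least 1 dye. Their normalized log2 ratios lay between -0.22 and 0.16, and 0 reached 2-fold.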

How the results depend on the processing

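No paired analysis was possible because each layer has 1 array and the labels number no replicates; for the same reason no replicate could be left out. All alternatives had been listed at the outset. In F/– dermis, higher counts were 103 with 1 median factor, 30 with a loess span of 0.1, 15 in the authors' deposited table, 11 without the brightest 2%, 11 without these and uneven spots, 119 at 1.5-fold and 12 at 3-fold. Lower counts were 224 without normalization, where the median of all probes was -0.47, 10 without uneven spots, 10 without these and the brightest 2%, 144 at 1.5-fold and 5 at 3-fold. Ratios higher in dermis than epidermis numbered 110 without normalization, 90 with normexp offset 0, 92 in the authors' deposited table, 332 at 1.5-fold and 13 at 3-fold; ratios lower in dermis numbered 116 without the brightest 2%, 567 at 1.5-fold and 63 at 3-fold. Other counts stayed within 1.5 times. Limits and left-out probes change counts by construction; for the other settings the cause was not tested. Of 321 log2 ratios of 41 named probes under other normalizations, background corrections or signals and in the authors' deposited table, 194 stayed within 1 SD between spots, 126 moved further, and 1 changed sign, that of the uneven A_51_P179511, at 0.024 with median pixel signals. Signal over background limits dim probes, whose folds depend on the offset. Alternatives for gene lists could not be run.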
